A study of Mus musculus with 5 samples.

Results

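The 10 genes described here encode basement membrane proteins and helpers of their assembly: the collagen IV chains Col4a1 and Col4a2, the laminin chains Lama1, Lama5, Lamb1 and Lamc1, the linkers Nid1 and Hspg2, the collagen chaperone Serpinh1 and the matrix protein Sparc. They were chosen by name, with earlier results of these data known, and are 10 of the 21930 genes with a symbol and a complete row in the deposited table. All 10 were found, through 12 RefSeq transcripts, and all 10 had a mean of at least 1 FPKM (fragments per length of transcript and depth of library) over the 5 libraries. FPKM is scaled for transcript length, so levels of different genes can be set side by side.

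The libraries were made from polyadenylated RNA of mouse E14 embryonic stem cells, whose strain label reads C57BL/6, with 1 library per group. A first pair came from normal cells and from cells labelled as overexpressing hexokinase 2 (Hk2) and pyruvate kinase M2 (Pkm2), both grown with leukemia inhibitory factor (LIF), a cytokine that keeps such cells from differentiating. A second pair, of the same cell types, was kept 24 hours without LIF before LIF was added. The fifth library came from cells labelled as overexpressing after 40 days in culture without LIF. The sources used here do not say how Hk2 and Pkm2 were introduced or whether the lines are clones. With a single library per group, differences between libraries carry no replicate error.

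A basement membrane is a thin sheet of matrix on which epithelia rest. Laminin forms its first network from trimers of 1 alpha, 1 beta and 1 gamma chain, which cells bind through integrins and dystroglycan. Collagen IV forms a second, covalently joined network, and nidogen and perlecan connect both. In the early mouse embryo the primitive endoderm and its derivative, the parietal endoderm, are known for making large amounts of collagen IV and laminin with an alpha 1 chain, and Serpinh1 (HSP47) holds new collagen triple helices in the endoplasmic reticulum until they are exported.

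Facts of the libraries that bear on these genes come first. Hk2 stood at 76.2 and 98.6 FPKM in normal and labelled cells with LIF, and at 49.7 and 59.0 FPKM after the 24 hour withdrawal, under 2-fold apart in each culture. In the 40 day library, also labelled as overexpressing, Hk2 was at 29.0 FPKM, below both normal libraries. Pkm, whose M2 form is the second introduced gene, was at 510 and 567 FPKM in normal and labelled cells with LIF, at 611 and 564 FPKM after withdrawal and at 495 FPKM at 40 days, so labelled cells were the lower ones after withdrawal. Hk2 thus went with the label weakly in both pairs, and Pkm went against it after withdrawal. The 40 day library has no normal library of the same culture beside it, so its levels cannot be set against the label. Each library is called by its label throughout. The Y-linked gene Ddx3y stood at 11.8 FPKM in both normal libraries, at 0.0225 and 0.0130 FPKM in the first 2 libraries labelled as overexpressing and at 1.79 FPKM in the 40 day library, which on this gene resembled neither cell type. Results at 40 days are therefore also given against the normal libraries, a choice made after this value was seen. Depth was estimated from the smallest values at between 32500000 and 40000000 fragments per library. Of 9590 genes with a mean of at least 1 FPKM, 749 were listed at exactly 0 in some library, among them Sparc and Hspg2. Such a 0 can be a failed estimate, so ratios of these 2 genes are given but not relied on. Pou5f1, a defining pluripotency factor, stood between 807 and 1092 FPKM in the 5 libraries.

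Col4a1 (11198423 to 11312826, minus strand) and Col4a2 (11312805 to 11449287, plus strand) lie head to head on chromosome 8 of mm9, so that their annotated 5′ ends overlap by 22 bases. Their promoters are shown because both genes were high in the same library. Those of Serpinh1 and Lamb1, which were also high there, and of Nid1, which was not, are set beside them. Each sequence is the RefSeq window of 250 bases before and 50 after the gene start (table of build GRCm38.p6), and each matched the mm9 genome exactly at 1 place, given here in mm9 coordinates. Capitals mark GC boxes (GGGCGG on either strand) and CCAAT boxes (CCAAT on either strand).
Col4a1, chr8:11312777-11313076, minus strand: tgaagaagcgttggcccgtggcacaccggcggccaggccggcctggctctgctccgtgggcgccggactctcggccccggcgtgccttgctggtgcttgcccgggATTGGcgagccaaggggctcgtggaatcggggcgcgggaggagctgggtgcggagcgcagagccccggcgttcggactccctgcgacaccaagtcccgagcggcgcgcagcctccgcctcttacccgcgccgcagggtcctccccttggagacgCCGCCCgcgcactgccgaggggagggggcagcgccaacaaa
Col4a2, chr8:11312555-11312854, plus strand: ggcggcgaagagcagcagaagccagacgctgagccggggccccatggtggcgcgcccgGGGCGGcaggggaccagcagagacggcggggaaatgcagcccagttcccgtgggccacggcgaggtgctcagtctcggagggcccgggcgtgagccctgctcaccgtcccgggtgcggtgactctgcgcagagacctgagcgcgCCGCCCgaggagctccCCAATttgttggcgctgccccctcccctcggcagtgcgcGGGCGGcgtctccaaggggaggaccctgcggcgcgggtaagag
Serpinh1, chr7:106501700-106501999, minus strand: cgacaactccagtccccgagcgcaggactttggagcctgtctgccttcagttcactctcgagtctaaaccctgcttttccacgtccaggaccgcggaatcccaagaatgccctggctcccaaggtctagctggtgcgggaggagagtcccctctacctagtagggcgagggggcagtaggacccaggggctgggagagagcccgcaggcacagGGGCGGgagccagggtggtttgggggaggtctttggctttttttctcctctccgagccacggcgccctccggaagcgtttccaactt
Lamb1, chr12:31949908-31950207, plus strand: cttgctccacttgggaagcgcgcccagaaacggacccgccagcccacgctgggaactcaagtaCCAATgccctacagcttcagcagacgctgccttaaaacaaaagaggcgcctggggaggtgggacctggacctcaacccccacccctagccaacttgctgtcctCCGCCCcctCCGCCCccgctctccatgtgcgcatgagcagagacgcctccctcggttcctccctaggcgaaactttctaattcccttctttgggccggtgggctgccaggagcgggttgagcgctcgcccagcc
Nid1, chr13:13529619-13529918, plus strand: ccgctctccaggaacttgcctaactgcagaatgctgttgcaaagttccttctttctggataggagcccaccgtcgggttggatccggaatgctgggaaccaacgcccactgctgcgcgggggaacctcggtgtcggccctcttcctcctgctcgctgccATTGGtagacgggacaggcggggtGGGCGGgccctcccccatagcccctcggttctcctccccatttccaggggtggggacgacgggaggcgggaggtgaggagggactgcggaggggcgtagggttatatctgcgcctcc

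The Col4a1 and Col4a2 windows share 78 bases and 1 GC box within them. The GC content of the 5 windows was 74.0% for Col4a1, 73.7% for Col4a2, 62.3% for Serpinh1, 63.7% for Lamb1 and 64.7% for Nid1, against a median of 52.7% over 32851 promoters. A GC box was present in 7 of the 8 members with an entry, and in 35.7% of all promoters, and a CCAAT box in 4 of 8 and 37.4%. Matches to AGATAA for GATA factors, ACAATG for SOX factors, TGANTCA for AP-1 and TATAAA as the TATA box, on either strand, were in none of the 8 windows, and in 11.2%, 12.6%, 7.81% and 13.6% of all promoters. Nid1 and Lamb1 each carried both boxes. At 40 days Lamb1 was 7.60-fold higher and Nid1 2.70-fold lower than in labelled cells with LIF. Against labelled cells after withdrawal, Lamb1 was 5.37-fold and Nid1 1.39-fold higher. The part of the boxes in these levels was not tested. The matches marked did not overlap each other. A match describes the letters only.

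Collagen IV transcripts were low in the first 4 libraries, at no more than 4.87 FPKM, and far higher at 40 days. Col4a1, the chain present as 2 copies in the common collagen IV trimer, was at 1.96 FPKM in normal and 4.87 FPKM in labelled cells with LIF, 1.92 and 2.86 FPKM after the 24 hour withdrawal and 125 FPKM at 40 days. Col4a2, the partner chain, stood at 0.927, 1.88, 0.565, 1.20 and 60.9 FPKM in the same order. Both genes had their single high value in the 40 day library and their second value in labelled cells with LIF. Ordered by level among 9590 genes, Col4a1 moved from place 6305 in labelled cells with LIF to place 332 at 40 days, and Col4a2 from place 8119 to place 881. Behind the lowest Col4a2 value stood an estimated 130 fragments, and behind its highest 14000.

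The ratio of Col4a1 to Col4a2 transcript levels was 2.11 in normal cells with LIF, 2.59 in labelled cells with LIF, 3.39 and 2.39 after withdrawal and 2.05 at 40 days. The 40 day library therefore had the lowest ratio at the highest level, and the ratio varied less than either gene. The other collagen IV chains, Col4a3 to Col4a6, summed to between 0.0101 and 0.270 FPKM, so Col4a1 and Col4a2 made up nearly all collagen IV transcripts in every library.

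Serpinh1, the collagen chaperone, stood at 5.69, 9.76, 4.81 and 6.83 FPKM in normal and labelled cells with LIF and in normal and labelled cells after withdrawal, and at 162 FPKM at 40 days, place 213 of 9590. The gene is on the minus strand of chromosome 7 (106493885 to 106501740). Of its 3 transcripts in the table, 1 carried the first 4 values alone, a second was listed at 0 in these libraries and at 23.8 FPKM at 40 days, and the third was listed at 0 throughout. The order of the 5 libraries was the same for Serpinh1 as for Col4a1 at the top, with 40 days first and labelled cells with LIF second.

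**Figure D1:**
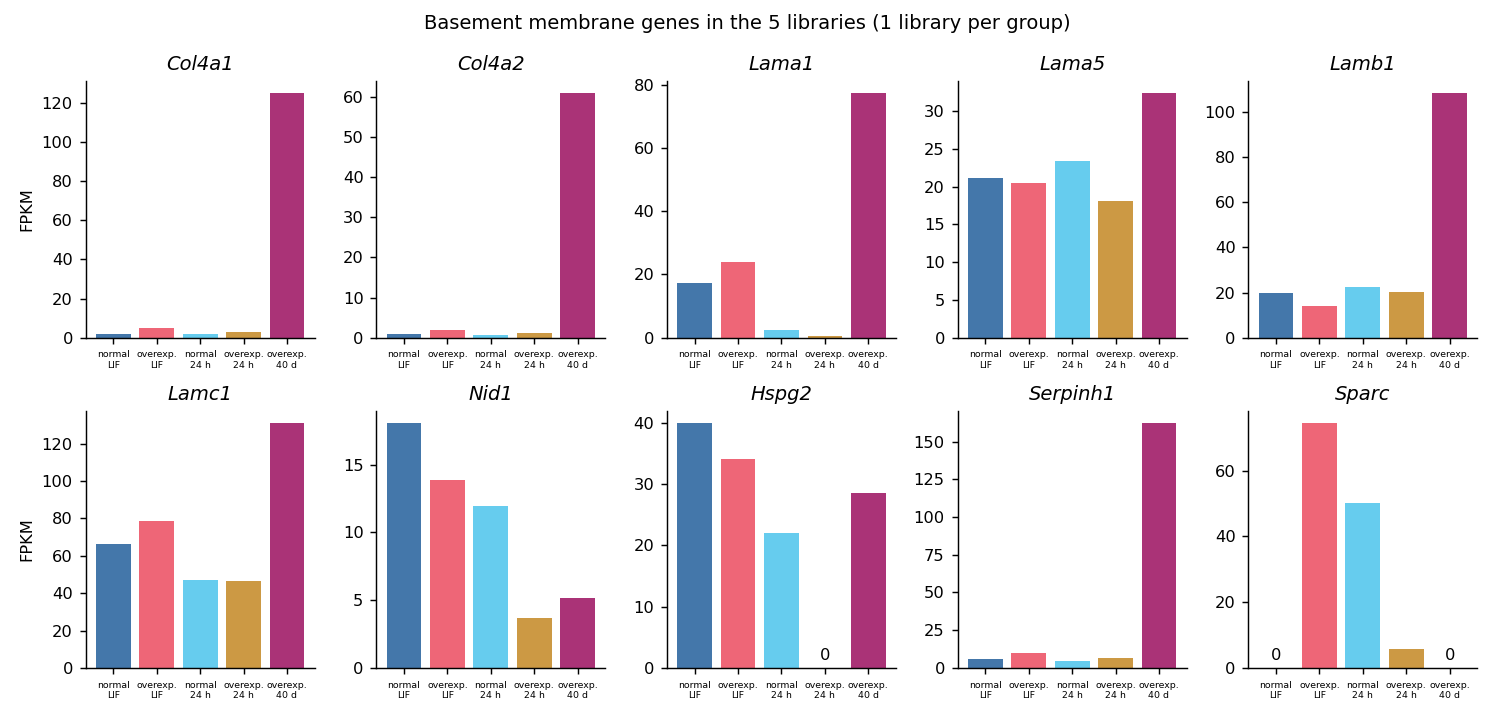
FPKM of each of the 10 basement membrane genes (y axis, linear, a scale per panel) in the 5 libraries (x axis; "overexp." stands for cells labelled as overexpressing Hk2 and Pkm2), with 1 bar per library, no replicates and 0 printed where a gene was listed at 0. Col4a1, Col4a2, Lamb1 and Serpinh1 stand far above their other libraries at 40 days, at 125, 60.9, 108 and 162 FPKM, whereas Nid1 is highest in normal cells with LIF, at 18.04 FPKM.

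The laminin chains did not share one pattern. Lama1, the alpha 1 chain of the embryonic trimer, stood at 17.4 and 23.9 FPKM in normal and labelled cells with LIF, at 2.52 and 0.436 FPKM after the 24 hour withdrawal, and at 77.3 FPKM at 40 days. It was thus lower in both libraries after withdrawal than in any other library, and highest at 40 days. An estimated 140 fragments stood behind the lowest of these values. Lama5, the broadly made alpha 5 chain, stood at 21.1, 20.5, 23.3, 18.1 and 32.4 FPKM in the same order of libraries, a far narrower range. As a share of all laminin alpha chain transcripts, Lama1 made up 45.1% and 53.7% with LIF, 9.73% and 2.34% after withdrawal and 70.5% at 40 days.

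Lamb1, the beta 1 chain, stood at 19.9, 14.2, 22.4 and 20.1 FPKM in the first 4 libraries and at 108 FPKM at 40 days. Lamc1, the gamma 1 chain common to most laminins, was the most abundant laminin transcript in every library, at 66.5 and 78.8 FPKM with LIF, 47.3 and 46.7 FPKM after withdrawal and 131 FPKM at 40 days. Lamc1 exceeded Lamb1 by 3.33-fold and 5.53-fold with LIF, 2.11-fold and 2.32-fold after withdrawal and 1.21-fold at 40 days. Summed over all chains of a class, alpha, beta and gamma transcripts stood at 38.6, 26.6 and 66.5 FPKM in normal cells with LIF, and at 110, 116 and 131 FPKM at 40 days. The classes were thus closest to equal at 40 days and least equal in labelled cells with LIF, where they stood at 44.5, 20.9 and 78.8 FPKM. Lamb2, the other beta chain past 1 FPKM, stayed between 3.95 and 7.40 FPKM.

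**Figure D2:**
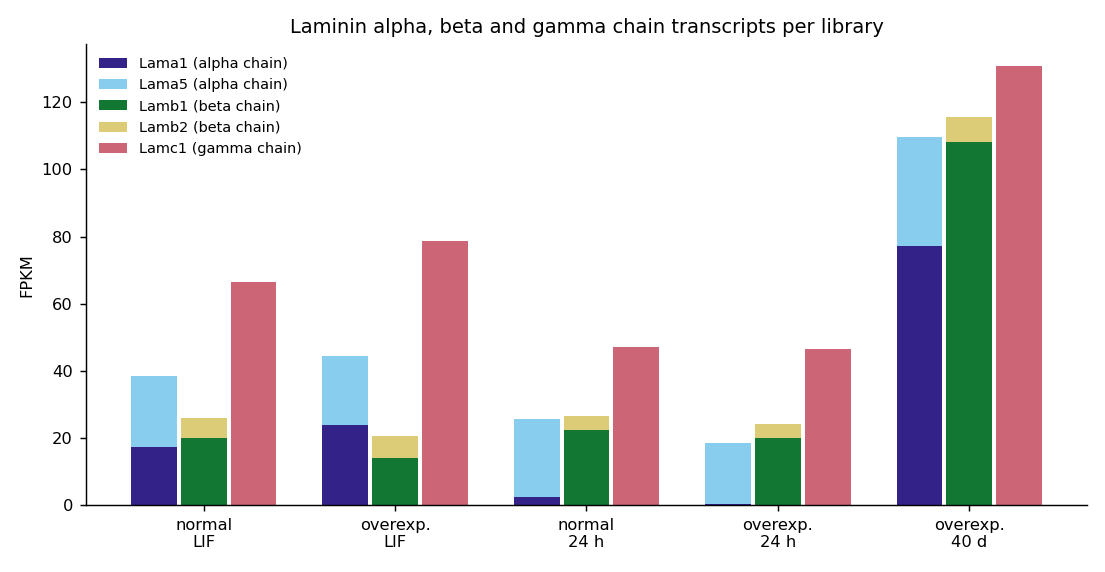
Stacked FPKM (y axis, linear) of laminin alpha (Lama1, Lama5), beta (Lamb1, Lamb2) and gamma (Lamc1) chain transcripts in each of the 5 libraries (x axis), 1 library per group. Lama1 shrinks to 2.52 and 0.436 FPKM after the 24 hour withdrawal, and the alpha, beta and gamma stacks come closest to equal height at 40 days.

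On mm9, Lama1 lies on chromosome 17 from 68046605 to 68171985 (plus strand), Lama5 on chromosome 2 from 179911078 to 179960564 (minus strand), Lamb1 on chromosome 12 from 31950099 to 32014509 (plus strand) and Lamc1 on chromosome 1 from 155066052 to 155179916 (minus strand). All 10 members are annotated as protein-coding. Since the library kit leaves strand unmarked, overlapping partners were not separated in the values. Annotated loci overlap Lamb1 (Gm11053), Lamc1 (the pseudogene Gm8818), Col4a1 (Gm15418) and Col4a2 (Gm15419).

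The linkers Nid1 and Hspg2 were each highest in normal cells with LIF. Nid1 (nidogen 1, chromosome 13 from 13529869 to 13604542, plus strand), which binds the laminin gamma 1 chain, stood at 18.04 and 13.9 FPKM with LIF, 11.95 and 3.69 FPKM after withdrawal and 5.13 FPKM at 40 days. It was the one member above 0 in every library that was lower at 40 days than in both libraries with LIF. Its relative Nid2 stood between 58.8 and 80.8 FPKM and made up 77.5% of nidogen transcripts in normal cells with LIF and 92.2% at 40 days. Hspg2 (perlecan, a heparan sulfate proteoglycan, chromosome 4 from 137024634 to 137126545, plus strand) stood at 39.8, 34.0 and 21.9 FPKM in the first 3 libraries, was listed at 0 in labelled cells after withdrawal and stood at 28.5 FPKM at 40 days. Sparc, a collagen-binding matrix protein (chromosome 11 from 55208002 to 55233582, minus strand), was listed at 0 in normal cells with LIF and at 40 days, and stood at 74.3, 50.3 and 5.604 FPKM in the libraries between. Among the members only these 2 were listed at 0 in any library, and the table does not tell a true absence from a failed estimate.

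With LIF, labelled cells were compared with normal cells to ask how the labelled overexpression goes with these genes. The collagen genes were higher in labelled cells: Col4a1 by 2.48-fold, Col4a2 by 2.03-fold and Serpinh1 by 1.71-fold. On the log2(FPKM + 1) scale, which understates changes of low genes and is used for all counts, these were 0.99, 0.58 and 0.69. Lama1 (0.44) and Lamc1 (0.24) were also above 0, and Lamb1 (-0.46), Nid1 (-0.36) and Lama5 (-0.04) below. Only Sparc passed a 2-fold difference, through its 0 in normal cells, so 1 of 10 members was at least 2-fold higher against 4.11% of 9590 genes, and 0 were lower against 5.32%. Of the 8 members never listed at 0, 0 were higher and 0 lower, against 2.53% and 3.59% of 8841 genes. The median over the members was 0.34, and that over all genes -0.04.

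After the 24 hour withdrawal, labelled cells again had higher Col4a1 (1.49-fold), Col4a2 (2.12-fold) and Serpinh1 (1.42-fold) than normal cells. Lama1 was 5.79-fold lower and Nid1 3.24-fold lower in labelled cells, at log2 ratios of -1.29 and -1.47. On the log2(FPKM + 1) scale used for the counts, Col4a2 was at 0.49 and so was not counted as 2-fold higher. With Hspg2 and Sparc, 4 of 10 members were at least 2-fold lower, against 5.18% of 9590 genes, and 0 were higher, against 4.19%. Without the members ever listed at 0, 2 of 8 were lower, against 3.70% of 8841 genes, and 0 higher, against 2.52%. Lamc1 and Lamb1 hardly differed, at -0.02 and -0.15.

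A limma fit over the 4 libraries with LIF and after withdrawal had cell type and culture in the model. Its error joins the agreement of the 2 cultures, on 1 residual degree of freedom, with the spread of the other genes, weighted as 1.457 degrees of freedom. For cell type, Col4a1 was 0.70 ± 0.24 (SE), Col4a2 0.53 ± 0.15 and Serpinh1 0.56 ± 0.16 higher on the log2 scale in the labelled libraries, each higher in 2 of 2 cultures. Their limma adjusted p-values over all genes were 0.534, 0.520 and 0.520. Nid1 was at -0.91 ± 0.37 with a limma adjusted p of 0.544. In this fit 0 of 10 members passed an adjusted p of 0.05, as did 0% of 9590 genes. At an unadjusted p under 0.05 stood 0 members and 9.57% of genes. Since the fit passed no gene at all and its error is largely borrowed from other genes, it cannot tell whether these cell type differences exceed the spread between the cultures.

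Withdrawal for 24 hours was compared with LIF within each cell type. In normal cells Lama1 was 6.89-fold lower after withdrawal, Nid1 1.51-fold, Lamc1 1.41-fold and Col4a2 1.64-fold lower, and Col4a1 was nearly level, at 1.02-fold lower. In labelled cells Lama1 was 54.8-fold lower, Nid1 3.75-fold, Lamc1 1.69-fold, Col4a1 1.70-fold and Col4a2 1.57-fold lower. Lamb1 was at 1.12-fold and 1.42-fold the level with LIF in normal and labelled cells, and Lama5 at 1.10-fold and 0.883-fold. Among the 8841 genes above 0 in every library, Lama1 held place 8819 from the top in normal cells and place 8837 in labelled cells, close to the lowest ratio in each.

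In normal cells 1 of 10 members was at least 2-fold lower after withdrawal (Lama1), against 5.51% of genes, and 1 was higher (Sparc), against 4.62%. Without Sparc and Hspg2, 1 of 8 was lower, against 3.86% of 8841 genes, and 0 higher, against 3.13%. In labelled cells 4 were lower, against 6.07%, and 0 higher, against 5.79%. The 4 included Sparc and Hspg2, and 2 of 8 remained without the members ever listed at 0, against 4.54% of 8841 genes, with 0 higher against 4.20%. The median of the members was -0.25 in normal and -0.67 in labelled cells, beside -0.01 and 0.00 over all genes. In the limma fit Lama1 was at -3.25 ± 0.57 (SE) and Lamc1 at -0.61 ± 0.11 for withdrawal, both lower in 2 of 2 cell types, with an adjusted p of 0.345 each, so neither passed. Nid1 was at -1.11 ± 0.37 with a limma adjusted p of 0.447. For withdrawal 0 of 10 members and 0% of genes passed, and at an unadjusted p under 0.05 there were 2 members, Lama1 and Lamc1, and 12.0% of genes.

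**Figure D3:**
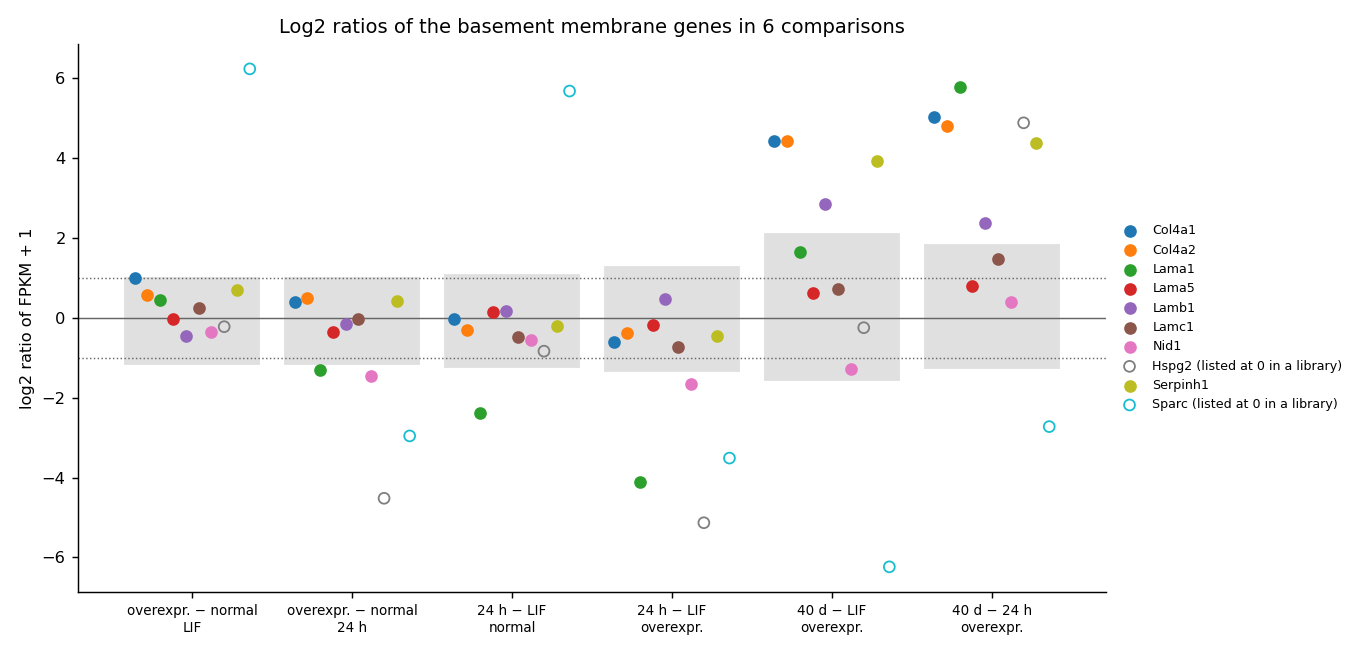
Log2 ratio of FPKM + 1 (y axis) of the 10 members in the 6 comparisons (x axis, first-named library minus second), 1 library per group. Open circles are Hspg2 and Sparc, which were listed at 0 in a library, grey boxes span 95% of the 8841 genes above 0 in every library and dotted lines mark 2-fold. Lama1 lies below the box in both withdrawal comparisons, and Col4a1, Col4a2 and Serpinh1 lie above it in both comparisons at 40 days.

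At 40 days without LIF the collagen IV genes and their chaperone were far above labelled cells with LIF: Col4a2 by 32.4-fold, Col4a1 by 25.6-fold and Serpinh1 by 16.6-fold. Lamb1 was 7.60-fold, Lama1 3.23-fold, Lamc1 1.66-fold and Lama5 1.58-fold higher, and Nid1 2.70-fold lower. On the log2 scale Col4a2 (4.43) held place 5, Col4a1 (4.42) place 6, Serpinh1 (3.92) place 10 and Lamb1 (2.84) place 58 among 8841 genes. At least 2-fold higher were 5 of 10 members, against 14.0% of 9590 genes, and 2 were lower, Nid1 and Sparc, against 8.31%. Without the members ever listed at 0, 5 of 8 were higher against 12.2% of 8841 genes, with a median of 2.25 beside 0.08, and 1 was lower (Nid1) against 6.76%. The members were proposed with this rise in view, so these counts describe it and do not support it.

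Against labelled cells after the 24 hour withdrawal the same library stood apart by more. Lama1 was 177-fold higher and held place 1 of 8841 genes, Col4a1 was 43.7-fold (place 3), Col4a2 50.8-fold (place 4) and Serpinh1 23.7-fold higher (place 7). Lamb1 was 5.37-fold, Lamc1 2.80-fold and Lama5 1.79-fold higher, and Nid1 stood at 1.39-fold. The direction of Nid1 turned with the reference, since against normal cells after the same withdrawal it was at 0.429-fold, past 2-fold lower (log2 ratio -1.08). At least 2-fold higher were 7 of 10 members against 12.1% of genes, and Sparc alone was lower, against 5.78%. Of the 8 never listed at 0, 6 were higher, against 10.3%, and 0 lower, against 4.20%. The comparisons at 40 days share the 40 day library and are not independent of each other.

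Set against normal cells with LIF, the 40 day library was 63.6-fold higher in Col4a1, 65.6-fold in Col4a2, 28.5-fold in Serpinh1, 5.43-fold in Lamb1 and 4.45-fold in Lama1. Against normal cells after withdrawal the same genes were 65.1-fold, 107.7-fold, 33.7-fold, 4.83-fold and 30.7-fold higher. Lamc1 was at 1.97-fold and 2.77-fold against the respective normal libraries, and Lama5 at 1.53-fold and 1.39-fold. Nid1 was at 0.284-fold and 0.429-fold, and Hspg2 at 0.716-fold and 1.30-fold. Sparc was listed at 0 in both the 40 day library and normal cells with LIF, so its log2 ratio was 0 there, beside -6.24 against labelled cells with LIF. The part of the intermediate Ddx3y level of this library in these differences was not tested. In bulk RNA a larger number of cells of one kind and more RNA per cell cannot be told apart.

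The other genes of the pathway came from lists made with earlier results of these data known. In the comparison of 40 days with labelled cells with LIF, used for all these lists, 14.0% of 9590 genes passed 2-fold upward and 8.31% downward. The filter of a mean of at least 1 FPKM includes the 40 day library. A gene high only there can therefore pass it, in the lists and among all genes alike, which favours counts of higher genes. Among other basement membrane chains and linkers, 7 of 22 genes in the table had a mean of at least 1 FPKM, and 2 of these were at least 2-fold higher at 40 days than in labelled cells with LIF and 0 lower. Tinagl1, a matrix protein related to a tubular basement membrane antigen, stood at 0.763 and 17.0 FPKM, and Smoc1, a SPARC-related matrix protein, at 0.554 and 2.93 FPKM. Both passed the filter only through the 40 day library, as did Sdc2, Timp2, Bmp1, Acta2 and Des of the lists below. The counts and medians of these lists are thus partly set by the filter. The collagen XVIII gene Col18a1 stood at 52.3 and 96.3 FPKM. Lama2, Lama3 and Lama4 were under 0.1 FPKM in every library.

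Of 18 genes for collagen folding, modification and export, 3 were at least 2-fold higher at 40 days and 1 lower, near the 14.0% and 8.31% of all genes, with a median of 0.11. The higher ones were the prolyl hydroxylase subunits P4ha1 (1.02 and 9.95 FPKM) and P4ha2 (2.34 and 12.2 FPKM), and the lysyl hydroxylase Plod2 (6.81 and 38.4 FPKM). Other collagen hydroxylases past the filter stayed under 2-fold, with log2 ratios of -0.37 for Plod1, 0.30 for Plod3 and -0.27 for P3h1. Fkbp14, a prolyl isomerase, was lower, at 2.201 and 0.364 FPKM. P4hb, the shared hydroxylase subunit, stood at 139 and 189 FPKM and Ppib, another isomerase, at 171 and 188 FPKM. Most of this list thus stayed near its level while Serpinh1 did not.

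Of 3 crosslinking genes past 1 FPKM, 2 were higher at 40 days, against 14.0% of all genes, and 1 lower, against 8.31%. Pxdn (peroxidasin), which forms the sulfilimine bonds of collagen IV, stood at 0.775 FPKM in labelled cells with LIF, 6.97 FPKM after withdrawal and 8.26 FPKM at 40 days, so most of its difference was present at 24 hours. Loxl2, a lysyl oxidase that acts on collagen IV, stood at 2.59, 2.25 and 9.66 FPKM, and Tgm2 at 4.23, 0.406 and 1.31 FPKM.

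Among 15 basement membrane receptors, 6 were at least 2-fold higher at 40 days than in labelled cells with LIF, against 14.0% of all genes, and 0 lower, against 8.31%, with a median of 0.68. Itgb1, the integrin beta 1 chain of the main laminin and collagen receptors, stood at 25.1 and 114 FPKM, Ddr1, a collagen receptor kinase, at 2.69 and 10.4 FPKM, and the glypican Gpc3 at 5.01 and 16.4 FPKM. In normal cells with LIF, Itgb1 was at 68.7 FPKM, so the labelled library used as reference was its lowest. Itga6, the alpha 6 chain of laminin-binding integrins, was listed at 0 in labelled cells after withdrawal and stood between 14.0 and 21.9 FPKM elsewhere. Dag1 (dystroglycan) was listed at 0 in 4 of the 5 libraries.

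Of 10 matrix proteases and inhibitors, 4 were at least 2-fold higher at 40 days, against 14.0% of all genes, and 2 lower, against 8.31%. The metalloprotease inhibitors Timp2 (0.364 and 7.96 FPKM) and Timp3 (0.737 and 6.86 FPKM) and the procollagen protease Bmp1 (1.04 and 5.86 FPKM) had the largest ratios, with Mmp2, a collagen IV-cleaving protease, at 4.64 and 12.1 FPKM. Adam17 (7.308 and 2.00002 FPKM) and Timp1 (32.3 and 15.1 FPKM) were lower. The inhibitors therefore did not move as a group.

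Markers of cell types that make or lack such matrix were read beside these values. Of 8 parietal and primitive endoderm genes past 1 FPKM, out of 19 in the table, 7 were at least 2-fold higher at 40 days than in labelled cells with LIF, against 14.0% of all genes, and 0 lower, against 8.31%, with a median of 3.56. Outside the 40 day library Dab2, Cubn, Gata6 and Amn were at no more than 1.09 FPKM, and they passed the filter only through that library. The count and the median are thus partly set by the filter. The endocytic genes Dab2 (0.276 and 52.0 FPKM), Cubn (0.0896 and 40.1 FPKM) and Lrp2 (2.64 and 46.7 FPKM) and the factor Gata4 (1.19 and 25.6 FPKM) had the largest ratios, and Gata6 stood at 0.248 and 7.88 FPKM. Cubn was listed at 0 in labelled cells after withdrawal. The list also holds genes known from visceral endoderm, such as Cubn, Lrp2, Amn, Ttr, Afp and Hnf4a, so it does not tell these kinds of endoderm apart. Below the filter, Thbd and Fst stood at 0.242 and 1.42 FPKM at 40 days, and Pdgfra at 4.20 FPKM. Of the other genes of the list, Sox17 and Hnf4a were listed at 0 at 40 days and were no higher than 0.0672 and 0.154 FPKM elsewhere. Afp was listed at 0 in every library and Ttr stood at 0.166 FPKM at 40 days. These zeros are not read as absence, since Mia3, a gene of collagen export, was listed at 0 in every library too. The summed level of this list ran from 257 to 977 FPKM over the libraries and is mostly Apoe. The sum was highest in normal cells with LIF and stood at 507 FPKM at 40 days. Apoe, the remaining gene past the filter, was lower at 40 days by less than 2-fold, at 485 and 290 FPKM. The part of these endoderm genes in the level of the basement membrane genes was not tested.

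The interstitial collagen genes were low beside Col4a1 at 40 days: Col1a1, Col1a2 and Col3a1 stood at no more than 0.195, 0.139 and 0.0501 FPKM in any library. Col5a1 stood between 0.840 and 1.44 FPKM, within the range of Col4a2 in the first 4 libraries, and Col6a2 reached 0.832 FPKM at 40 days. The shares of all genes to set beside the next counts are again 14.0% higher and 8.31% lower. Of 6 fibroblast and interstitial genes past 1 FPKM, 2 were higher at 40 days, Acta2 (0.0277 and 6.77 FPKM) and Tagln (listed at 0, and 25.6 FPKM), and Vim was lower. The list summed to between 93.7 and 207 FPKM, most of it Vim and Fn1. Of 3 endothelial genes past the filter 0 were 2-fold higher or lower, and the list summed to between 10.04 and 15.8 FPKM, with Pecam1 listed at 0 in 3 libraries and at 4.25 and 6.53 FPKM in labelled cells with LIF and at 40 days. Cdh5, Flt1 and Tek were also highest at 40 days, at 0.414, 0.210 and 1.09 FPKM, whereas Kdr was listed at 0 there and Emcn in every library. Of 4 trophoblast genes 2 were higher, the keratins Krt8 (6.20 and 21.6 FPKM) and Krt18 (2.80 and 54.2 FPKM), and 1 was lower (Tfap2c). Cdx2, Elf5, Gata3 and Hand1 were below the filter, at no more than 0.799 FPKM at 40 days. The list had sums from 13.0 to 80.8 FPKM. Of 4 muscle, neural and mesoderm genes 2 were higher and 1 lower, with sums from 5.80 to 54.5 FPKM. Of 10 pluripotency genes 6 were lower and 0 higher at 40 days, with a median of -1.78 and sums from 1583 FPKM at 40 days to 2750 FPKM.

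**Figure D4:**
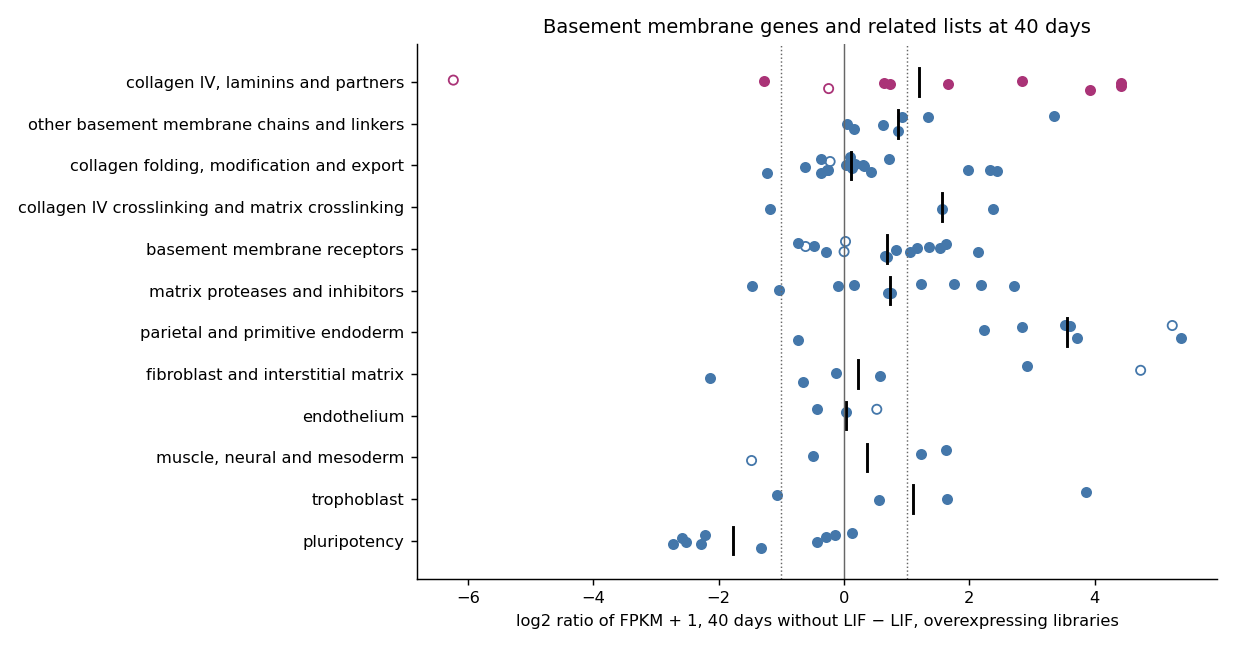
Log2 ratio of FPKM + 1 (x axis) between the 40 day library and labelled cells with LIF, for the 10 members (top row) and for the genes of each related list with a mean of at least 1 FPKM (rows), 1 library per group. Each point is a gene, open where it was listed at 0 in some library, black bars are medians and dotted lines mark 2-fold. The endoderm list has the highest median, 3.56, and the pluripotency list the lowest, -1.78. Some genes of the endoderm list and of other lists reached the mean of 1 FPKM only through the 40 day library.

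Genes were ordered by how near their profile lay to that of Col4a1, as the Euclidean distance over the 5 libraries between log2(FPKM + 1) values centred on each gene's mean. Among 8840 genes above 0 in every library, Col4a2 was first (distance 0.34) and Serpinh1 second (0.61). The next were Chac1 (0.73), Atf3 (1.12), Dab2 (1.26), Foxq1 (1.31), Amn (1.501), Nupr1 (1.605), Retreg1 (1.70) and Gata4 (1.77). Chac1 stood at 3.85, 5.75, 2.29 and 3.75 FPKM in the first 4 libraries and at 100.4 FPKM at 40 days, and shared with Col4a1 the second place of labelled cells with LIF. The laminin chains followed at place 57 for Lamb1, 346 for Lama1, 404 for Lamc1 and 1469 for Lama5, and Nid1 lay at place 8500, near the far end. The order rests on 5 libraries and mostly on the 40 day value, and is a description with no test.

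**Figure D5:**
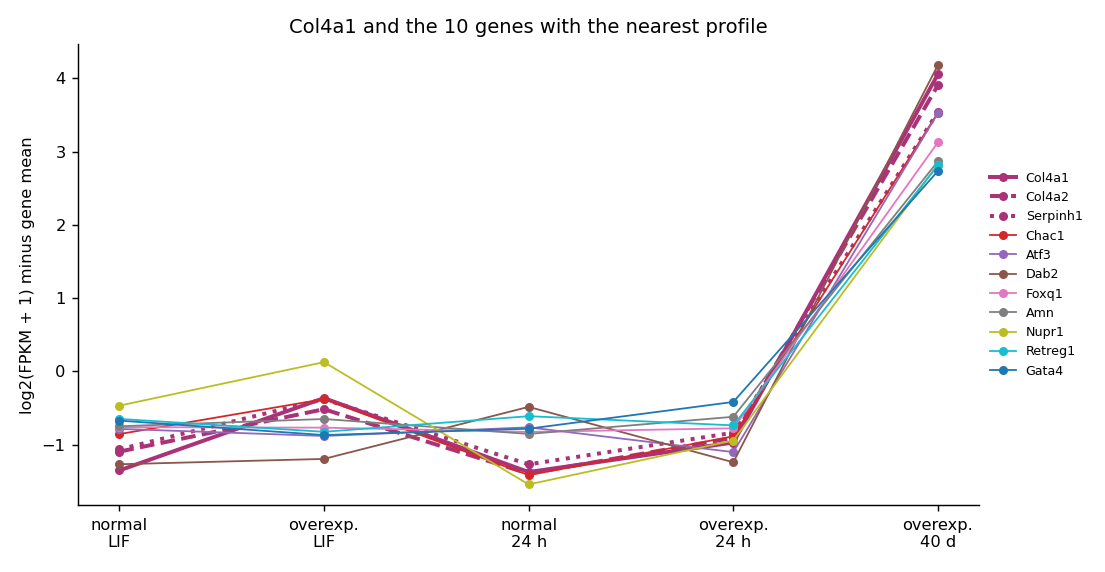
Log2(FPKM + 1) minus the gene's mean over the 5 libraries (y axis) for Col4a1 and the 10 genes with the nearest profile, by library (x axis), 1 library per group. The members Col4a1, Col4a2 and Serpinh1 are drawn thick, and all 11 lines meet their highest point at 40 days.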

How the data were processed

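The authors deposited FPKM per RefSeq transcript for 5 libraries (TruSeq RNA kit, per the labels' protocols). TopHat2 2.0.7, Cufflinks 2.0.2 and mm9 are named in the submitters' processing notes. How multiply mapped fragments were handled is not given there. FPKM are not counts, so no count model was used. Symbols were found for 28066 of 28698 transcripts by accession (RefSeq, GRCm38.p6), FPKM was summed per gene, and 337 genes with a hyphen in a cell were left out. Ratios are differences of log2(FPKM + 1) over 9590 genes with a mean of at least 1 FPKM. A 2-fold difference was counted without a test. Limma 3.58.1 (R 4.3.3; lmFit, eBayes with trend, Benjamini-Hochberg over 9590 genes) used the 4 libraries with LIF and after 24 hours, with cell type and culture as terms, and was tested on simulated data. Nothing in the labels says that libraries are separate lines, so its p-values cover these libraries only. Depth was estimated from what 1 fragment is worth in transcripts of single-transcript genes, with GENCODE vM1 lengths. Coordinates are those of GENCODE vM1 (NCBIM37, mm9). The members and lists were chosen with earlier results of these data known. Members were all named, and of each list up to 4 genes with the largest ratios, or genes whose role was needed. Named beyond that rule, after their values were seen, were Ddx3y, Col5a1, Col6a2, endothelial markers and genes given as low or listed at 0. Alternatives were the pseudocount, scaling, the mean filter, transcript choice, leaving out members at 0 and the reference of the 40 day library.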

Additional observations from a re-analysis of the deposited data

Results flagged for a closer look

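Sparc moved in opposite directions by more than 2-fold in the 2 cultures and in the 2 cell types. Its log2 ratio of labelled over normal cells was 6.24 with LIF and -2.96 after the 24 hour withdrawal. Its log2 ratio of withdrawal over LIF was 5.68 in normal cells and -3.51 in labelled cells. The difference was not tested, since each group has 1 library. Both ratios above 0 rest on the library of normal cells with LIF, where Sparc was listed at 0.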

How the results depend on the processing

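Leaving out members ever listed at 0 changed the counts of 2-fold differences. With LIF, labelled cells then had 0 members higher instead of 1, and after withdrawal 2 lower instead of 4. For withdrawal, normal cells had 0 higher instead of 1 and labelled cells 2 lower instead of 4. At 40 days, 1 instead of 2 was lower than with LIF, with the median moving from 1.19 to 2.25, and 0 instead of 1 was lower than after withdrawal. In labelled against normal cells with LIF, a pseudocount of 0.1 FPKM and median scaling each gave 2 members higher, against 5.83% and 4.52% of all genes under the same setting. A pseudocount of 5 FPKM gave 2 lower between cell types after withdrawal (1.98% of all genes), 1 lower at 40 days against LIF (4.10%), and a median of 2.46 instead of 3.37 at 40 days against withdrawal. Against the normal libraries, a choice made after the data were seen, the 40 day library had 1 member lower (9.08% of all genes) and a median of 1.53 for LIF, and 2 lower (Nid1 and Sparc; 6.94%) and a median of 1.84 for withdrawal, where Nid1 turned from 0.39 to -1.08. Apart from the members left out, whose share follows from fewer genes, the cause was not tested. Of 488 single-gene ratios under an alternative, 427 stayed within 0.25, 61 moved by more and 0 that were at least 2-fold changed sign. Much of this was fixed in advance. All 10 members passed the mean filter, 0 member transcripts were marked as duplicates, and leaving out members did not touch the others. Taking the highest transcript could alter Serpinh1 alone. With a pseudocount of 0.1 FPKM 18 ratios moved and 42 stayed, and with 5 FPKM 27 moved and 33 stayed. Against the normal libraries 15 moved and 5 stayed, and quantile normalization moved 1. Limma passed 0 members for either effect under every alternative run. No paired analysis was possible because each group has 1 library, so no second replicate number pairs 2 groups. The limma fit instead compared cell types across both cultures as terms of one model. Depth limits little here, with an estimated 130 fragments or more behind each member value above 0.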
